A study of Homo sapiens with 6 samples.

Results

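The collagen chains of basement membranes and of the anchoring fibrils tied to them were followed in ARPE-19 cells with and without overexpression of a CD51 fragment. The 9 genes were taken by symbol from the 58735 genes of the deposited count table: COL4A1 to COL4A6, which encode the chains of collagen IV, COL7A1, the anchoring fibril collagen, and COL15A1 and COL18A1, the multiplexin pair. ARPE-19 is an established human line derived from retinal pigment epithelium (RPE). Of 6 libraries, 3 came from cells labelled NC with genotype WT, and 3 from cells labelled with CD51_ICD over expression (OE CD51 ICD below). ITGAV encodes CD51, the alpha V integrin chain, and the series title concerns osteopontin, ITGAV and epithelial-mesenchymal transition of RPE in dry macular degeneration. The sources used here do not give the construct, its promoter, the duration of expression or whether the cells are 1 clone. They also do not say whether libraries of 1 group are separate cultures, and p-values then reflect library-to-library spread alone, possibly technical.

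Basement membranes are thin matrix sheets under epithelia and around vessels and muscle. Collagen IV chains wind into trimers that join end to end into a network, to which laminins, nidogen and perlecan are attached. The alpha 1 and alpha 2 chains form the network found in nearly all tissues, while alpha 3, alpha 4 and alpha 5 assemble together in the kidney glomerulus, lung, cochlea and eye, and alpha 6 joins alpha 5 in other epithelia. Collagen VII forms the loops that anchor an epithelial basement membrane to the stroma beneath, and collagen XVIII, the precursor of endostatin, is a heparan sulfate proteoglycan of epithelial and vascular basement membranes. RPE cells rest on such a membrane, the inner layer of Bruch's membrane.

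The collagen IV genes lie in 3 head-to-head pairs, each read outwards from a short shared stretch. In RefSeq (GRCh38.p14) the starts of COL4A1 and COL4A2 on chromosome 13 are 127 bases apart, those of COL4A4 and COL4A3 on chromosome 2 are 419 apart, and those of COL4A6 and COL4A5 on the X chromosome are 380 apart, with another COL4A6 start 1416 bases from that of COL4A5. The stretches are shown because members of the first 2 pairs rose together while COL4A5 did not pass the test, and COL7A1 is shown as the gene with the largest change. Each ends at the base before the gene's start and runs 5′ to 3′ on the gene's strand: COL4A1 covers the whole interval between the 2 starts (chr13:110307158-110307283, minus strand), and the others cover the 250 bases before the start of COL4A3 (chr2:227164374-227164623, plus strand), COL4A4 (chr2:227164206-227164455, minus strand), COL4A5 (chrX:108439588-108439837, plus strand) and COL7A1 (chr3:48595330-48595579, minus strand). Capitals mark matches on either strand to the TATA box, searched as TATAAA, to the CCAAT box, to the GC box, searched as GGGCGG, to the AP-1 site, searched as TGANTCA, and to the SMAD box, searched as CAGAC. In these stretches no matches overlapped. The COL4A3 and COL4A4 stretches share part of their bases, and the loci that the deposited table gives for COL4A1, COL4A3 and COL4A4 begin before their RefSeq starts, inside the stretches shown. The COL4A2 locus in that table covers the whole COL4A1 stretch.
COL4A1: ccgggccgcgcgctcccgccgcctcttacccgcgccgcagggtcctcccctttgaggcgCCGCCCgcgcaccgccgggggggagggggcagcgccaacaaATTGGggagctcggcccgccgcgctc
COL4A3: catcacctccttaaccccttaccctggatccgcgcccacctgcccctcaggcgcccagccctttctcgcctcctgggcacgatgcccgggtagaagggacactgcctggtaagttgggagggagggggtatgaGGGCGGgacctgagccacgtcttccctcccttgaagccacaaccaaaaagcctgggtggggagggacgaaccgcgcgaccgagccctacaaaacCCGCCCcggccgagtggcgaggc
COL4A4: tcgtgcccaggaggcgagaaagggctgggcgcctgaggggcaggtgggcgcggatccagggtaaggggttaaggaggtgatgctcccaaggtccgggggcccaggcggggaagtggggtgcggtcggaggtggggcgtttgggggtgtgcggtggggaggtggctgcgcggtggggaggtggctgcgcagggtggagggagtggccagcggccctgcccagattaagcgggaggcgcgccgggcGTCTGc
COL4A5: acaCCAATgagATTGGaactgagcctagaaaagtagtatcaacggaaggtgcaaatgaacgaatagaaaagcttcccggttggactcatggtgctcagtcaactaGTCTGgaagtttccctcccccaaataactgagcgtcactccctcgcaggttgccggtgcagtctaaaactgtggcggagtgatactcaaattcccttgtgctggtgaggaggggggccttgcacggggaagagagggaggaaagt
COL7A1: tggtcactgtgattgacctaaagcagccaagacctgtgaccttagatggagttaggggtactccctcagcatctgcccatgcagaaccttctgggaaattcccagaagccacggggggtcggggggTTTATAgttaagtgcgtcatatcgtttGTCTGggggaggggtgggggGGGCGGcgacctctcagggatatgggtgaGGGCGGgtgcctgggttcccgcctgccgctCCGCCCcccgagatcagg

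The interval between COL4A1 and COL4A2 had a GC content of 80.2%, with 1 GC box and 1 CCAAT box. The stretches before COL4A3 and COL4A4 had 66.4% and 72.8%, that before COL7A1 60.8% and that before COL4A5 51.2%. Over the windows of 300 bases (250 before to 50 after a start) the 11 listed starts of the 9 genes ran from 43.7% at the COL4A6 start nearest COL4A5 to 86.7% at the upstream COL18A1 start, beside a median of 58.7% over 34943 windows. A GC box was in 8 of the 11 windows (44.9% of all windows), a SMAD box in 5 (45.3%), a CCAAT box in 4 (34.6%), a TATA box in 2 (11.6%) and an AP-1 site in 0 (7.72%). The TATA matches were in the COL7A1 window and at the downstream start of COL18A1. These matches describe letters and were not tested against expression.

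In the whole data set, total counts ran from 13616694 to 16934668 per library, and 13787 genes passed the filter on low counts. ITGAV, the gene of the overexpressed fragment, was 89.3 to 113 CPM (counts scaled to library size) in the NC libraries and 371 to 536 CPM in OE CD51 ICD (log2 fold change 2.18 ± 0.11 SE, adjusted p = 1.47e-16 by edgeR's quasi-likelihood test), and a whole-gene count does not separate a construct from the cell's own transcript. Of the 14 RPE marker symbols found, RPE65, TTR and RGR had no count in any library, while the keratins KRT8 and KRT18 were at 3717 and 1538 CPM in NC and at 3461 and 1444 CPM in OE CD51 ICD. Of the 8 RPE markers tested, RLBP1 (log2 0.81, adjusted p = 0.0134) and PMEL (log2 0.80, adjusted p = 0.000125) were higher, MITF was lower (log2 -0.56, adjusted p = 0.00119, all edgeR) and 5 did not pass. The RPE list summed to 5157 to 5614 CPM in NC and 4626 to 5349 CPM in OE CD51 ICD, nearly all of it KRT8 and KRT18. BEST1, TYR and TYRP1 were below the count filter, with 34, 2 and 17 counts in NC and 25, 9 and 13 in OE CD51 ICD. The endothelial list, other possible makers of collagen IV, summed to 3.36 to 3.89 CPM in NC and 1.502 to 2.53 CPM in OE CD51 ICD, with ERG and EMCN at 0. The fibroblast list summed to 223 to 248 and 385 to 428 CPM, nearly all of it PDGFRB (223 and 389 CPM on average), with DCN and DPT at 0. The microglia and macrophage list summed to 3.04 to 4.67 and 31.2 to 37.1 CPM, of which CSF1R made 3.60 and 32.9 on average, with C1QA, C1QB, C1QC, TREM2 and P2RY12 at 0. The smooth muscle and pericyte list summed to 49.9 to 54.7 and 44.1 to 50.9 CPM. In bulk RNA, more cells of a type and more RNA per cell cannot be told apart.

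Of the 9 collagen genes, 8 were tested: 6 were higher in OE CD51 ICD, 0 were lower, COL4A5 and COL4A6 did not pass, and COL15A1 was below the count filter. For comparison, 51.0% of all tested genes were called at an adjusted p under 0.05, 25.2% as higher and 25.8% as lower. COL4A1, COL4A2, COL4A3, COL4A4 and COL7A1 were higher by at least 2-fold, as were 6.89% of all tested genes, while 5.83% were lower by at least 2-fold. The 6 called genes had no overlap between groups, with every OE CD51 ICD library above every NC library, a pattern that 28.0% of tested genes showed, with 29.5% apart in the other direction. The median log2 fold change over the 8 tested chains was 1.54, beside 0.01 over all tested genes. Together the 9 genes took 0.240 to 0.275% of all counts in the NC libraries and 0.726 to 0.831% in the OE CD51 ICD libraries.

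**Figure D1:**
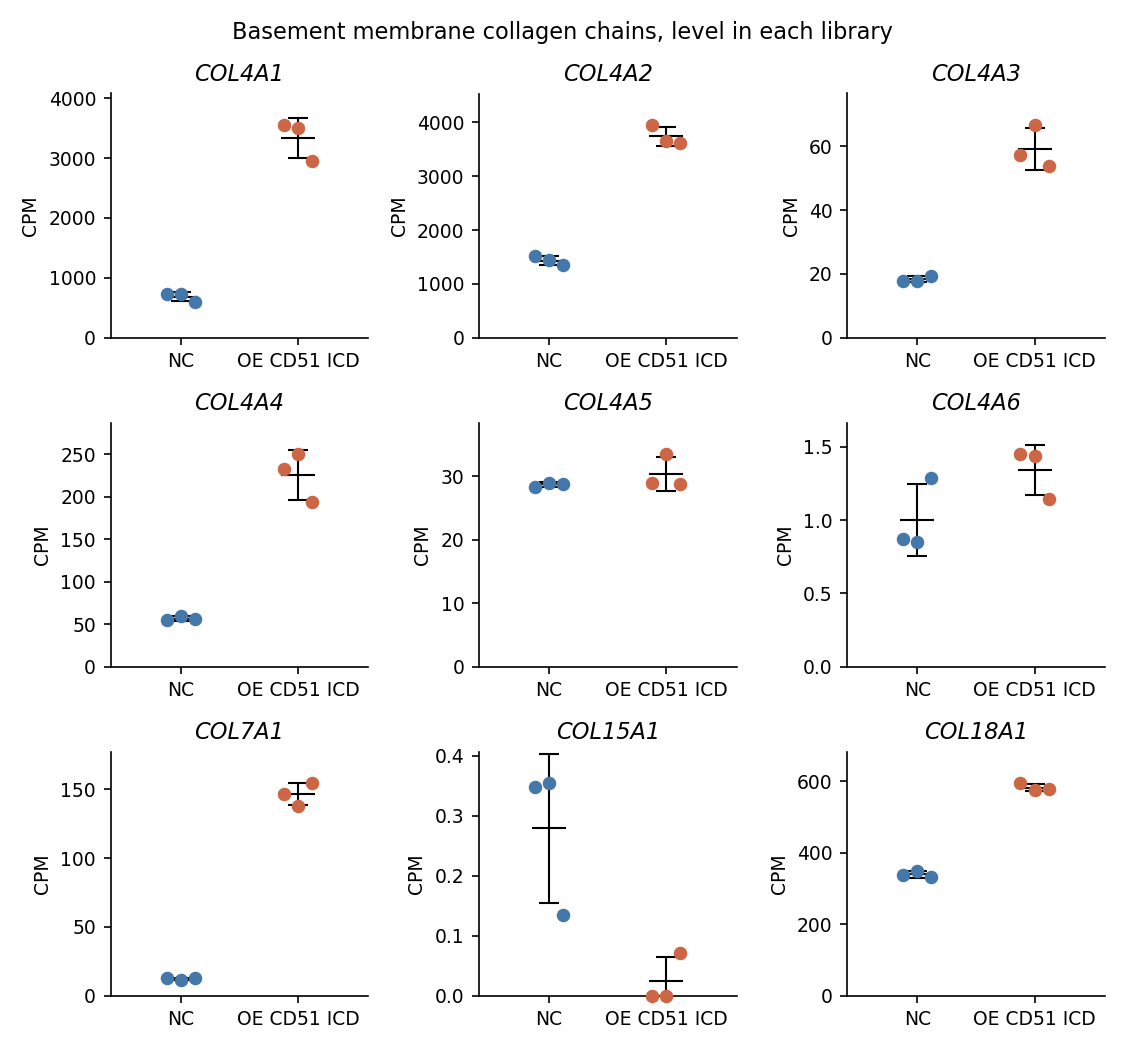
Level of each of the 9 collagen genes in CPM (linear axes from 0), 1 point per library, with the mean and SD over 3 libraries per group as bars. The groups are apart for COL4A1 to COL4A4, COL7A1 and COL18A1, overlap for COL4A5 and COL4A6, and COL15A1 stays under 0.4 CPM in all 6 libraries.

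COL4A1 (ENSG00000187498, chromosome 13, 110148963 to 110307233, minus strand, GRCh38) encodes the alpha 1 chain. Its level was 729, 728 and 594 CPM in NC replicates 1, 2 and 3, and 3547, 3502 and 2947 CPM in the OE CD51 ICD replicates. Replicate 3 was the lowest library of both groups, and the lowest OE CD51 ICD library was still far above the highest NC library. The rise was 4.87-fold (log2 2.28 ± 0.09 SE, adjusted p = 1.23e-18, edgeR's quasi-likelihood test), and 1.34% of tested genes rose more.

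COL4A2 (ENSG00000134871, chromosome 13, 110305812 to 110513209, plus strand) encodes the alpha 2 chain, the partner of alpha 1 in the network. It stood at 1509, 1437 and 1345 CPM in NC and at 3945, 3654 and 3617 CPM in OE CD51 ICD. The libraries of a group lay close together and the groups were well apart. The rise was 2.61-fold (log2 1.39 ± 0.08 SE, adjusted p = 5.34e-15, edgeR). The antisense genes COL4A2-AS1 and COL4A2-AS2 share 81 and 14 exon bases with it and held 45 and 33 counts over the 6 libraries, beside 230252 for COL4A2. The annotated COL4A1 and COL4A2 loci overlap at their starts but share 0 exon bases.

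The 2 partner chains rose by different amounts. The ratio of COL4A1 to COL4A2 in FPKM, which is per length, was 0.633, 0.663 and 0.578 in NC and 1.18, 1.25 and 1.07 in OE CD51 ICD. All OE CD51 ICD ratios were above all NC ratios, a log2 difference of 0.90 (two-sided exact permutation p = 0.1, the smallest that 3 libraries against 3 can give). A ratio within a library is free of the scaling between libraries, but its level depends on the length used. With the longest coding length of each gene (5007 and 5136 bases) in place of the deposited lengths (14738 and 19293 bases), the mean ratio was 0.489 ± 0.034 in NC and 0.914 ± 0.074 in OE CD51 ICD (SD, n = 3). So on average COL4A1 was above COL4A2 in OE CD51 ICD by the deposited lengths and below it by coding length, while the difference between groups was the same by either.

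COL4A4 (ENSG00000081052, chromosome 2, 227002711 to 227164453, minus strand) and COL4A3 (ENSG00000169031, chromosome 2, 227164565 to 227314792, plus strand) encode the alpha 4 and alpha 3 chains, which are mutated in Alport syndrome, and alpha 3 carries the Goodpasture antigen. COL4A4 was at 54.4, 59.9 and 55.6 CPM in NC and at 233, 250 and 194 CPM in OE CD51 ICD. COL4A3 was at 17.6, 17.9 and 19.5 CPM in NC and at 57.3, 66.6 and 53.8 CPM in OE CD51 ICD. For both genes OE CD51 ICD replicate 2 was the highest library and replicate 3 the lowest of its group, and no library overlapped the other group. COL4A4 rose 3.99-fold (log2 1.996 ± 0.094 SE, adjusted p = 4.49e-17) and COL4A3 3.23-fold (log2 1.69 ± 0.11 SE, adjusted p = 9.55e-14, both edgeR). The ratio of COL4A4 to COL4A3 in FPKM was 2.58 to 3.03 in NC and 3.26 to 3.69 in OE CD51 ICD, a log2 difference of 0.30 without overlap (two-sided exact permutation p = 0.1). The antisense gene AC097662.1 shares 120 exon bases with COL4A3 and held 52 counts in all, beside 3442 for COL4A3.

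COL4A5 (ENSG00000188153, X chromosome, 108439844 to 108697545, plus strand) encodes the alpha 5 chain, with which alpha 3 and alpha 4 are known to assemble. Its level was 28.3, 28.95 and 28.8 CPM in NC and 28.97, 33.4 and 28.7 CPM in OE CD51 ICD. The OE CD51 ICD replicate 2 was the highest library, and the others of both groups lay within 1 CPM of each other. The log2 fold change of 0.08 ± 0.11 SE did not pass (adjusted p = 0.555, edgeR). Its 95% interval, -0.14 to 0.31, covers folds from 0.906 to 1.24, below the interval of every chain that rose.

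The proportions of alpha 3, alpha 4 and alpha 5 transcripts therefore differed between groups. The ratio of COL4A3 to COL4A5 in FPKM was 0.811, 0.804 and 0.879 in NC and 2.57, 2.59 and 2.44 in OE CD51 ICD. That of COL4A4 to COL4A5 was 2.26, 2.44 and 2.27 in NC and 9.49, 8.81 and 7.95 in OE CD51 ICD. In NC the COL4A3 transcript was less abundant per length than COL4A5, and in OE CD51 ICD it was more abundant, in every library. The log2 differences were 1.61 and 1.91 (two-sided exact permutation p = 0.1 each). Over the 5 ratios of collagen IV chains computed, p adjusted by Benjamini-Hochberg was 0.125 for the 4 ratios without overlap (exact permutation).

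COL4A6 (ENSG00000197565, X chromosome, 108155607 to 108439497, minus strand), the alpha 6 gene that shares its upstream stretch with COL4A5, was barely detected. It had 15, 12 and 19 counts in the NC libraries and 22, 21 and 16 in OE CD51 ICD. The groups overlapped, and the log2 fold change of 0.43 ± 0.37 SE did not pass (adjusted p = 0.349, edgeR; 95% interval -0.33 to 1.18). At this depth a change of up to 2.27-fold lies inside that interval. The ratio of COL4A6 to COL4A5 also overlapped between groups (0.0375 to 0.0570 and 0.0510 to 0.0639 in FPKM, two-sided exact permutation p = 0.3).

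**Figure D2:**
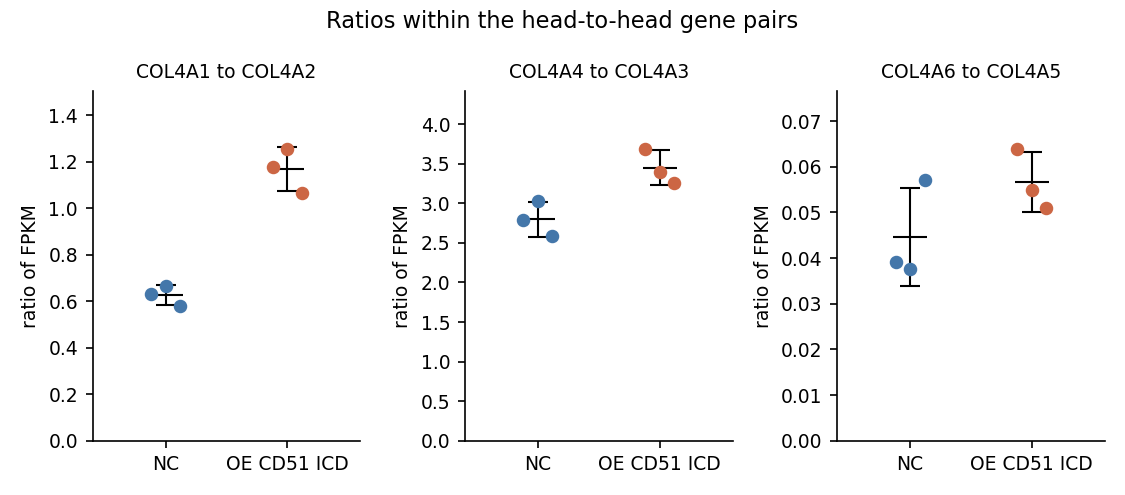
Ratio of the FPKM values of the 2 genes of each head-to-head pair (linear axes from 0), 1 point per library, with mean and SD over 3 libraries per group. The COL4A1 to COL4A2 ratio goes from 0.578 to 0.663 in NC to 1.07 to 1.25 in OE CD51 ICD, the COL4A4 to COL4A3 ratio shifts less without overlap, and the COL4A6 to COL4A5 ratio overlaps.

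The collagen IV pool as a whole was larger in OE CD51 ICD. The summed FPKM of COL4A1 to COL4A6 was 136, 133 and 120 in NC and 473, 450 and 414 in OE CD51 ICD, 3.44-fold higher on average without overlap (two-sided exact permutation p = 0.1). Within this sum the share of COL4A1 was 35.4 ± 1.7% in NC and 50.01 ± 1.7% in OE CD51 ICD, and that of COL4A2 56.8 ± 1.3% and 43.0 ± 2.1% (SD, n = 3 per group). These shares depend on the deposited lengths. By coding length COL4A2 stayed above COL4A1 on average, at 279 and 137 CPM per kilobase in NC. In OE CD51 ICD the means were 728 and 665. COL4A4 held 4.31 ± 0.34% and 4.95 ± 0.38%, and COL4A3 1.55 ± 0.20% and 1.44 ± 0.13%. COL4A5, whose own level did not pass the test, went from 1.86 ± 0.15% to 0.568 ± 0.051% of the pool. COL4A6 was under 0.12% of it in every library.

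**Figure D3:**
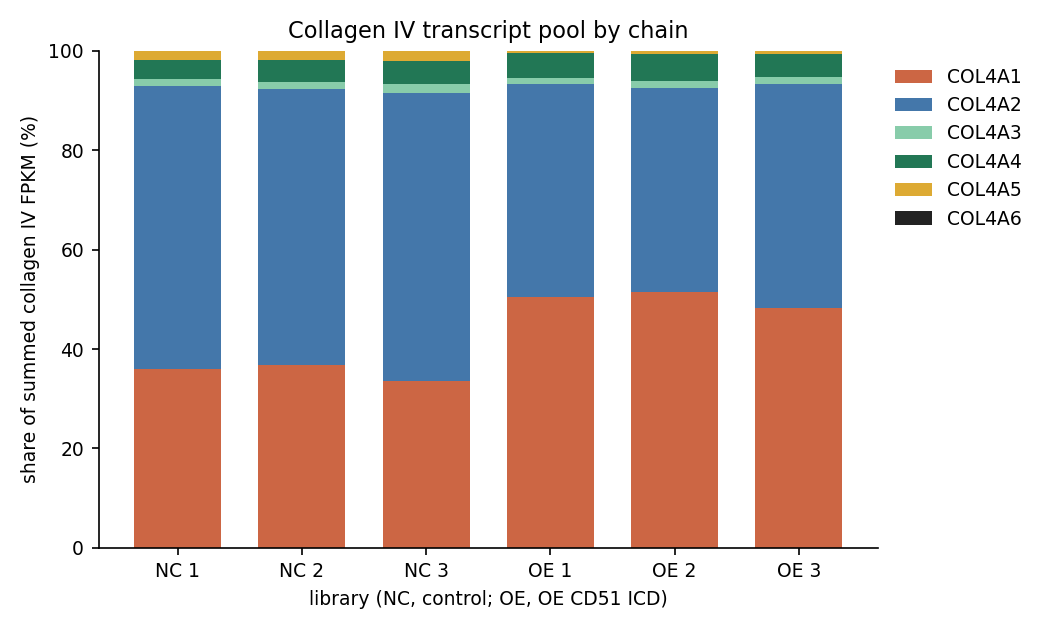
Share of each chain gene in the summed FPKM of COL4A1 to COL4A6 (%, by the deposited gene lengths, on which the shares depend), 1 stacked bar per library. COL4A1 takes 33.5 to 36.8% in the NC libraries and 48.2 to 51.4% in the OE CD51 ICD libraries, mostly against COL4A2, and the COL4A5 band narrows.

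COL7A1 (ENSG00000114270, chromosome 3, 48564073 to 48595267, minus strand) encodes the chain of the anchoring fibrils and is mutated in dystrophic epidermolysis bullosa. It had the largest fold change of the 8 tested chains. Its level was 13.0, 11.2 and 12.5 CPM in NC and 147, 138 and 154 CPM in OE CD51 ICD. The libraries of each group were close and the groups far apart. The rise was 11.96-fold (log2 3.58 ± 0.10 SE, adjusted p = 2.50e-22, edgeR), the 58th largest of 13787 tested genes. On the log2(FPKM + 1) scale, which compresses low levels, the change was 2.75.

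COL18A1 (ENSG00000182871, chromosome 21, 45405137 to 45513720, plus strand) rose least among the called chains. It was at 337, 350 and 332 CPM in NC and at 595, 575 and 578 CPM in OE CD51 ICD, with little spread in either group. The rise was 1.71-fold (log2 0.78 ± 0.08 SE, adjusted p = 6.38e-10, edgeR). The gene has an upstream and a downstream start, and a whole-gene count does not say which was used. SLC19A1, the reduced folate carrier gene, lies on the opposite strand and shares 1401 exon bases with COL18A1, and it held 2717 counts in NC and 1081 in OE CD51 ICD beside 15694 and 25524 for COL18A1. The use of strand in counting is not given, so reads in the shared bases cannot be assigned, and SLC19A1 moved in the other direction.

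COL15A1 (ENSG00000204291, chromosome 9, 98943179 to 99070792, plus strand), the multiplexin of vascular and muscle basement membranes, was near the limit of detection. It had 6, 5 and 2 counts in the NC libraries and 0, 0 and 1 in OE CD51 ICD. It was not tested. The ratio of the scaled sums, OE CD51 ICD to NC, was 0.0811 with an exact 95% interval of 0.00191 to 0.540, which covers counting error only.

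**Figure D4:**
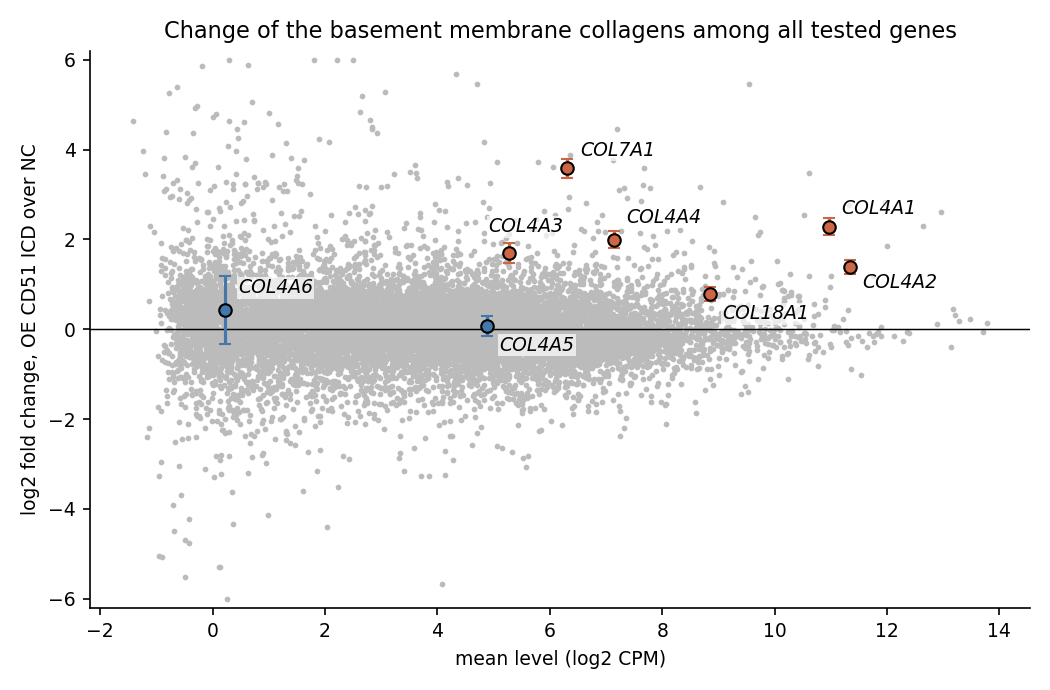
Log2 fold change of OE CD51 ICD over NC against the mean level (log2 CPM) for 13787 tested genes (grey; values beyond 6 in size are drawn at the edge) with the 8 tested collagen chains and their 95% intervals. The 6 called chains (orange) lie above 0.6, COL7A1 highest at 3.58, and the intervals of COL4A5 and COL4A6 (blue) span 0.

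Per length, the chains covered a wide range of levels, and their order differed in part between the groups. In NC the mean FPKM was 73.6 ± 3.95 for COL4A2, 46.0 ± 5.07 for COL4A1 and 39.6 ± 0.998 for COL18A1 (SD, n = 3), where the ranges of COL4A1 and COL18A1 overlapped. COL4A4 followed at 5.58 ± 0.28, COL4A5 at 2.40 ± 0.03, COL4A3 at 1.996 ± 0.114 and COL7A1 at 1.10 ± 0.08, each apart from its neighbours in all libraries. COL4A6 was at 0.107 ± 0.027 and COL15A1 at 0.0416 ± 0.0185. In OE CD51 ICD, COL4A1 (223 ± 20.7 FPKM) and COL4A2 (191 ± 9.86 FPKM) overlapped at the top, and COL18A1 (67.5 ± 1.75), COL4A4 (22.1 ± 2.60), COL7A1 (13.1 ± 0.88), COL4A3 (6.40 ± 0.63), COL4A5 (2.53 ± 0.19) and COL4A6 (0.143 ± 0.017) followed without overlap. COL7A1 thus moved from below COL4A3 and COL4A5 to above both, and COL4A3 from below COL4A5 to above it. By coding length, COL4A2 was above COL4A1 in both groups, with 728 and 665 CPM per kilobase in OE CD51 ICD. In NC, COL4A1 and COL18A1 were at 137 and 64.6 CPM per kilobase on average, so their closeness in FPKM depended on the length used.

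The genes with the profile most like COL4A1 were sought among 9567 other protein-coding genes (mean level 5 CPM or more), by the root mean square difference of log2 CPM from each gene's own NC mean over the 6 libraries. They were MAMDC2 (0.11), TGFBI (0.13), FUT8 (0.13), APCDD1L (0.13) and MFAP3L (0.14). TGFBI, which encodes a secreted matrix protein, went from 2149 ± 8.57 to 10573 ± 160 CPM, and FUT8, the core fucosyltransferase, from 13.1 ± 0.39 to 70.3 ± 9.02 CPM (SD, n = 3). For COL4A2 the nearest were HYOU1 (0.05), MEST (0.05), PHLDB1 (0.06), SYNPO (0.07) and PANX1 (0.07). HYOU1, a chaperone of the endoplasmic reticulum, went from 269 ± 8.02 to 713 ± 34.3 CPM, and PHLDB1, a protein of the cell cortex at the basement membrane, from 392 ± 13.1 to 987 ± 32.2 CPM. With 2 groups, this measure mostly compares the size of the change. The lists for the 2 partner chains had no gene in common. Under this measure that follows from the different sizes of their rises and is not a separate result.

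Of 31 listed laminins, nidogens, proteoglycans and other basement membrane partners of these collagens, 18 were tested, and 9 were higher, 5 lower and 4 did not pass (edgeR; median log2 fold change 0.41). Among all tested genes 25.2% were called higher and 25.8% lower, and the number of lower partners was close to that share. SPARC, a collagen IV-binding matricellular protein, rose from 1786 ± 37.9 to 6420 ± 503 CPM (log2 1.85 ± 0.08 SE, adjusted p = 1.05e-17). LAMB1, the laminin beta 1 chain, rose from 110 ± 2.11 to 279 ± 18.5 CPM. The nidogens NID2 (log2 1.35) and NID1 (log2 0.60), which link laminin to collagen IV, and FRAS1 (log2 1.21), a basement membrane adhesion protein, were also higher. LAMA3 and LAMB3, chains of laminin 332, fell, from 27.0 ± 2.94 to 14.0 ± 1.36 CPM and from 84.3 ± 11.4 to 47.2 ± 1.74 CPM. HSPG2, which encodes perlecan, was 1329 and 1428 CPM on average and did not pass (log2 0.10, adjusted p = 0.286). With each library's trend with GC content removed, 3 genes of this list were lower in place of 5.

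The next list holds genes that fold, modify and export collagen chains in the cell, together with PXDN, LOXL2 and TGM2, which crosslink matrix proteins outside it. Of its 26 genes, all tested, 16 rose, 2 fell and 8 did not pass (edgeR; median log2 fold change 0.50), beside 25.2% of all tested genes called higher and 25.8% lower. The prolyl 4-hydroxylase subunits P4HA3, P4HA1 and P4HA2 rose, P4HA3 from 4.52 ± 0.31 to 41.7 ± 3.67 CPM (log2 3.21 ± 0.14 SE, adjusted p = 6.49e-18) and the others by 1.71 and 1.62 on the log2 scale. TGM2, a transglutaminase that crosslinks matrix proteins, rose from 81.7 ± 1.68 to 739 ± 32.9 CPM. SEC24D, a coat protein of vesicles that carry collagen out of the endoplasmic reticulum, rose from 39.3 ± 1.30 to 131 ± 17.7 CPM. PXDN, peroxidasin, which makes the sulfilimine crosslinks of the collagen IV network, rose from 600 to 1152 CPM (log2 0.94, adjusted p = 2.90e-11), and the chaperone SERPINH1 from 404 to 742 CPM (log2 0.88, adjusted p = 1.53e-10); both were named after their values were seen. The 2 lower genes were COLGALT1, a collagen galactosyltransferase (log2 -0.60 ± 0.08 SE), and PREB (-0.35 ± 0.09 SE), and 1 was lower with the GC trend removed.

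Among 18 receptor genes, 16 were tested, and 11 were higher, 3 lower and 2 did not pass (edgeR; median log2 fold change 0.71). For comparison, 25.2% of all tested genes were called higher and 25.8% lower. The receptor list holds ITGAV itself, the gene of the overexpressed fragment, and counts it among the 11 higher genes. ITGA1, the alpha 1 integrin subunit that binds collagen IV with beta 1, rose from 11.6 ± 1.80 to 36.6 ± 4.53 CPM, and its partner ITGB1 from 396 ± 52.3 to 1136 ± 137 CPM. ITGB3 (log2 1.88) and ITGB5 (log2 1.01), beta subunits that pair with alpha V, were also called higher. GPC1, glypican 1, fell from 628 ± 33.3 to 292 ± 15.3 CPM. The other lower calls were ITGB4 (log2 -0.19, adjusted p = 0.0419) and KDR (log2 -0.99, adjusted p = 0.0484), both close to the threshold. The number of lower genes was 1 in place of 3 without NC replicate 1, 2 or 3 or without OE CD51 ICD replicate 1 or 3, and 2 without OE CD51 ICD replicate 2.

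Of 32 listed proteases and inhibitors that act on these collagens, 20 were tested, and 7 were higher, 4 lower and 9 did not pass (edgeR; median log2 fold change 0.12). Called genes were thus about as frequent in this list as among all tested genes, of which 51.0% were called. MMP2, gelatinase A, which degrades collagen IV, rose from 47.8 ± 1.16 to 346 ± 11.1 CPM (log2 2.85 ± 0.08 SE, adjusted p = 5.00e-22), while MMP9, the other gelatinase, had 0 counts in all libraries. The urokinase gene PLAU rose from 18.5 ± 2.39 to 143 ± 37.3 CPM. BMP1 (log2 0.88) and TLL1 (log2 1.19), proteinases that process procollagens, and CTSK (log2 0.74), cathepsin K, were higher too. MMP24, a membrane-type metalloproteinase, fell from 218 ± 3.52 to 80.0 ± 5.56 CPM and ADAMTS1 from 50.8 ± 5.12 to 23.8 ± 3.09 CPM. Of the inhibitors TIMP1 to TIMP4, TIMP2 fell from 1144 ± 136 to 628 ± 27.6 CPM (log2 -0.87). TIMP3 was higher (log2 0.24, adjusted p = 0.0145, edgeR), and TIMP1 and TIMP4 did not pass.

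The tested anchoring fibril and hemidesmosome genes of the COL7A1 list changed less than COL7A1 itself. Only 0.413% of all tested genes rose more than COL7A1, so a smaller change in its partners was likely beforehand. Of 11 genes, 10 were tested (edgeR, median log2 fold change 0.11), and 4 were higher, 3 lower and 3 did not pass. Beside this, 25.2% of all tested genes were called higher and 25.8% lower. No gene of the list was called by 2-fold, where 6.89% of all tested genes were higher and 5.83% lower by that much. With the GC trend removed, 6 genes of the list were higher and 2 lower. ITGA6, the alpha 6 integrin subunit of hemidesmosomes, rose from 31.5 ± 0.93 to 52.2 ± 3.002 CPM, DST, which encodes a plakin, by 0.61 and CD151 by 0.35 on the log2 scale. LAMA3 and LAMB3, whose laminin 332 binds collagen VII, are the lower genes given above, together with ITGB4. COL17A1, the hemidesmosomal collagen, was not tested, with 15 counts in the NC libraries together and 5 in the others. PLEC, plectin, was 2205 and 2291 CPM and did not pass.

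Of the 35 other collagen genes, 12 were tested, and 6 were higher, 4 lower and 2 did not pass (edgeR; median log2 fold change 0.50, which is the same with COL20A1, absent in NC, placed at any bound above it). The shares over all tested genes were 25.2% called higher and 25.8% called lower. The higher genes of this list included COL1A1 (32.9 ± 9.94 to 1452 ± 201 CPM), COL11A1 (198 ± 15.4 to 536 ± 78.7 CPM) and COL5A2 (92.8 ± 5.91 to 200 ± 23.7 CPM). COL9A2 and COL6A1 fell, by 1.79 and 1.43 on the log2 scale. Whether the basement membrane chains differ from the other collagens as a group was not tested.

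**Figure D5:**
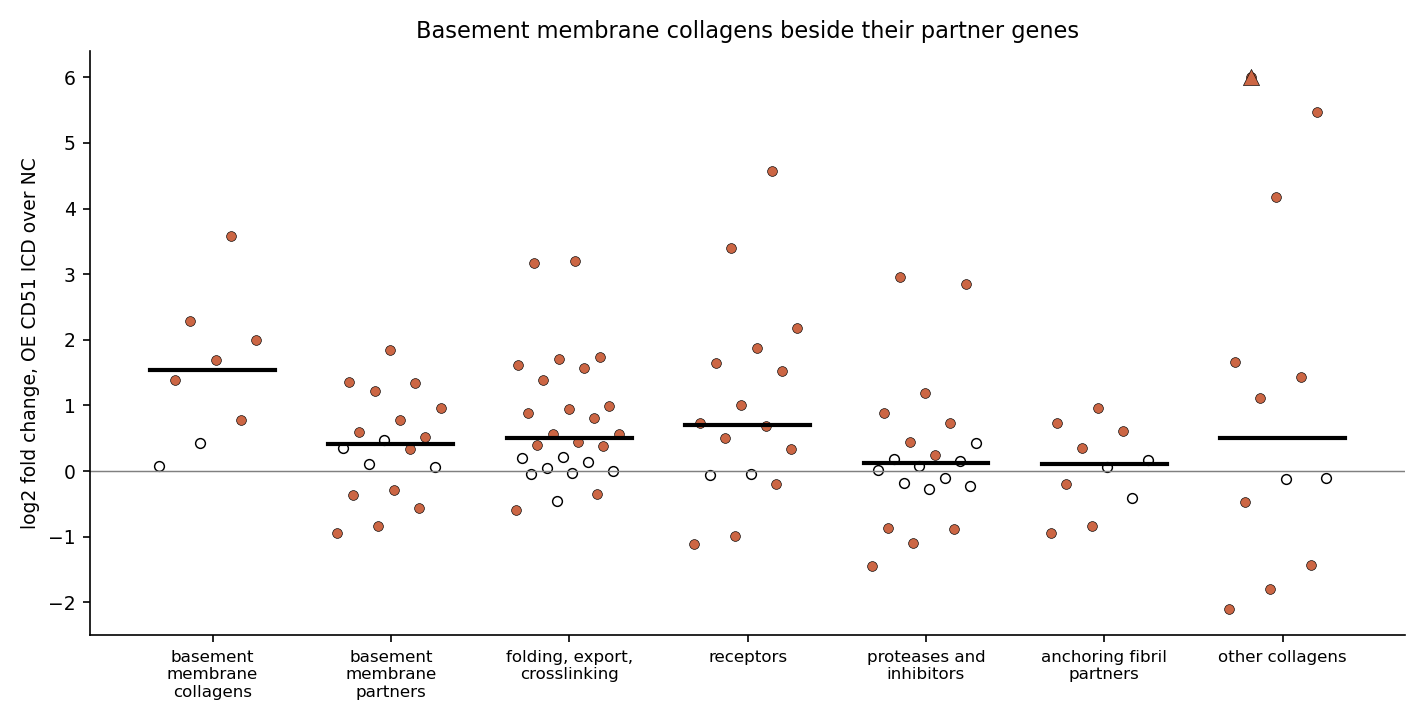
Log2 fold change of each tested gene in the 8 basement membrane collagens and in 6 lists of related genes. Filled points have an adjusted p under 0.05, open points do not, bars are medians, and the triangle is COL20A1, drawn at the edge because it had no count in NC. The medians run from 1.54 for the collagens of basement membranes to 0.11 for the anchoring fibril partners.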

How the data were processed

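RNA libraries of 3 NC and 3 OE CD51 ICD samples were made with a SMARTER mRNA kit from total RNA, per the labels' protocols, and hg38 is the build in the submitters' processing notes. Aligner, counter and strand setting: not given in the sources used here. The authors deposited raw counts per gene (58735 genes) and FPKM values (per length and depth), which equal those counts divided by the deposited gene length and by 1 constant per library, 0.961 to 1.05 times its total. Gene lengths are in the deposited tables and, for the 9 collagens, are longer than the coding lengths taken here from GENCODE 29.

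The deposited counts went into edgeR 4.0.16 (R 4.3.3; filterByExpr, TMM, glmQLFit and glmQLFTest, two-sided, Benjamini-Hochberg over 13787 genes), with calls at an adjusted p under 0.05. Levels in CPM use the TMM-scaled library size. Standard errors come from the F statistic and 95% intervals from its degrees of freedom. Ratios and sums of FPKM were compared by exact permutation with SciPy 1.17.1. The members, lists and tests were chosen with earlier results of these data known. Named genes were all members, and per list the called genes averaging 5 CPM or more with no overlap between groups, up to 5 in the direction with more calls and up to 2 in the other. Genes named outside this rule, after their values were seen, were PXDN, SERPINH1, LOXL2, HSPG2, KDR, MMP9, TIMP1 to TIMP4, PLEC and COL17A1, beside the nearest profiles, overlapping loci and cell type markers. Ratios other than COL4A1 to COL4A2 and the coding lengths were added after seeing the data. Alternatives were other scalings, filters and tests (limma 3.58.1, DESeq2 1.42.0), log2(FPKM + 1) and log2(FPKM + 0.1), each library left out, GC or length trends removed, and the replicate number as a block. In simulated counts on 13787 genes, 200 were changed. Of these, 94.9% of changes of log2 1 and 100% of log2 2 were recovered, and 4.43% of calls were false. The simulation gave all genes the same relative spread beyond counting noise and changed few of them. In the real data 51.0% of tested genes were called, so these rates need not hold there. Promoter sequences are from RefSeq, GRCh38.p14, and all 9 genes matched. The values of 1 gene of the lists are not reported here.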

Additional observations from a re-analysis of the deposited data

How the results depend on the processing

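The 6 called chains kept their direction and their call in each of 20 alternatives, with log2 fold changes of 2.04 to 2.44 for COL4A1, 1.09 to 1.65 for COL4A2, 1.30 to 1.76 for COL4A3, 1.81 to 2.10 for COL4A4, 2.75 to 3.88 for COL7A1 and 0.64 to 1.11 for COL18A1. COL4A5 passed in none (-0.12 to 0.13) and was below 0 with the gene length trend removed (-0.12, adjusted p = 0.343, edgeR). COL4A6 passed in none (0.05 to 0.64). The log2 difference of the COL4A1 to COL4A2 ratio was 0.85 to 0.96 and that of the collagen IV sum 1.73 to 1.83. These ranges cover 9 alternatives, none of which removed the GC or length trend. With the GC trend removed, the log2 fold changes were 2.44 for COL4A1 and 1.65 for COL4A2. With the length trend removed they were 2.04 and 1.09. With the GC trend removed, and also with the replicate block and the GC trend removed, lower genes numbered 3 among basement membrane partners and 1 among folding and export genes. Lower receptor genes numbered 1 with upper-quartile scaling and with no low-count filter, and 1 to 2 with a library left out; the cause was not tested. With the replicate number as a block, 6 chains were higher and 0 lower, and the change of COL4A1 was 2.29. Over all tested genes, same-numbered libraries deviated from their group means together by r = -0.05, 0.00 and 0.05. These values show no pairing by number but cannot exclude it, and the block changed no call among the chains. COL4A6 and COL15A1 had few counts at this depth, which limits what can be said of their change.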
